A study of Mus musculus with 46 samples.

Results

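Martinotti cells and interneuron-selective cells of mouse frontal cortex were compared as library sums of single-cell RNA counts. The members are the 8 libraries whose cells carry the name of either type, 4 for each type, of 46 libraries in the series. They hold 125 of its 584 cells and come from 4 of its 18 labelled animals. Martinotti cells (62 cells) came from Sst-Flp; CR-Cre; Ai65 mice, female and 35 days old. Interneuron-selective cells (63 cells) came from Vip-Flp; CR-Cre; Ai65 mice, female and 32 days old. CR stands for calretinin, the product of Calb2, and Ai65 is a reporter that needs both recombinases, so both types share the calretinin driver and the reporter and differ in the Flp driver. Single red fluorescent neurons of layer 2/3 were isolated after slicing, dissection and trituration, with no experimental treatment. Each library pooled 15 or 16 barcoded cells of 1 animal, and each type has 2 animals with 2 libraries each, numbered below as libraries 1 and 2 of the first animal and 3 and 4 of the second. All 8 libraries ran on 1 flow cell, but each animal had its own lane (3 and 4 for Martinotti animals, 5 and 6 for interneuron-selective animals), and the types differ by 3 days of age, so lane and age cannot be told apart from cell type.

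Martinotti cells are somatostatin neurons that send an ascending axon to the outermost cortical layer and inhibit the distal dendrites of pyramidal cells. Interneuron-selective cells are vasoactive intestinal peptide neurons that mainly contact other inhibitory neurons, somatostatin neurons among them, and so disinhibit pyramidal cells. Somatostatin neurons arise in the medial ganglionic eminence of the embryo and vasoactive intestinal peptide neurons in the caudal one. The comparison asks which genes separate a dendrite-targeting cell from a cell that targets other interneurons, where both release GABA and share the calretinin driver.

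The peptide genes whose drivers label the cells are shown first, because both promoters are known for their response to cyclic AMP. Of the 77 genes that passed the test described below, 52 had a promoter window in the RefSeq table used here, which covers 250 bases before to 50 bases after the start of a gene in build GRCm38.p6. The windows below are given 5′ to 3′ on the gene's own strand, with matches to TGACGTCA, TGACGT and TATAAA in capitals, searched on both strands. TGACGTCA is the palindromic cyclic AMP response element, and every match to it is also a match to TGACGT. The Sst window lies at chr16:23890795-23891094 on the minus strand and the Vip window at chr10:5638968-5639267 on the plus strand.
Sst: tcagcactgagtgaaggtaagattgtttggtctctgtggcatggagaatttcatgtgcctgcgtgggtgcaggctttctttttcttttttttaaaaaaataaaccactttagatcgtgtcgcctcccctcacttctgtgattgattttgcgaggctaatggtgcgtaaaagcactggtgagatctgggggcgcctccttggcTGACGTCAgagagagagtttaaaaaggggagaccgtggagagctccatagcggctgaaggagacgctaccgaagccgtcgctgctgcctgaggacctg
Vip: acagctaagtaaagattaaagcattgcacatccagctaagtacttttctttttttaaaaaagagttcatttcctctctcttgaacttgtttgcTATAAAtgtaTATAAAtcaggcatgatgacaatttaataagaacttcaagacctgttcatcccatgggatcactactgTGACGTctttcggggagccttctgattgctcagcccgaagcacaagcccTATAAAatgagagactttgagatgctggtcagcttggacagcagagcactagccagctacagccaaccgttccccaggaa
In Sst the palindrome begins 48 bases before the start. Vip holds TGACGT from 79 bases before the start and TATAAA 3 times, first at 157 bases before it. Of all 27025 windows, 507 (1.876%) held TGACGTCA, 2066 (7.645%) held TGACGT and 3827 (14.16%) held TATAAA. Among the genes that passed, Sst was the only one of the 24 higher in Martinotti cells with TGACGTCA, and none of the 28 higher in interneuron-selective cells had it. TGACGT stood in 3 of those 24 (Wdr48, Sst and Ptprm) and in 3 of those 28 (Pde4b, Vip and Rapgef3). These matches describe the letters in the windows and were not tested as sites.

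Library totals were 1119944 to 3115229 counts in Martinotti cells and 530927 to 1092091 in interneuron-selective cells, so levels are given in CPM, which scales counts to the total of the library. Values run from library 1 to library 4, and type means are over 2 animals with their SD. A count of 0 in a whole type allows a level of up to 0.362 CPM in Martinotti cells and 0.968 CPM in interneuron-selective cells (3 counts over the type, counting error only). Cells of a library differed from each other by only 1.03 to 1.13 times the sampling noise, so a library behaves here as 1 measurement and not as 15 or 16. Whether the barcodes separate single cells was not tested, and numbers of cells with a count are therefore not given. All 16 barcodes recur across libraries, up to 8 times. Across genes, which are not independent, libraries of the same animal correlated at 0.729 and 0.636 in Martinotti cells and at 0.591 and 0.611 in interneuron-selective cells. Libraries of different animals of a type correlated at 0.650 to 0.666 and at 0.581 to 0.596, and libraries of different types at 0.521 to 0.577.

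Sst and Vip separated the libraries without exception. Sst stood at 1079.6, 1345, 1717 and 1912 CPM in the Martinotti libraries and at 1.88, 0, 0 and 0 CPM in the interneuron-selective libraries. Vip stood at 0, 0, 0 and 0 CPM in the Martinotti libraries and at 2658, 3089, 2115 and 2167 CPM in the interneuron-selective libraries. Sst had 1 count over all interneuron-selective cells and Vip had none over all Martinotti cells. Both genes drive the labels, so these values check the labels and are no finding. Calb2, whose driver both types share, was at 33.7, 149, 196 and 41.9 CPM in Martinotti libraries and 659, 352, 427 and 339 CPM in interneuron-selective libraries. The 4 interneuron-selective libraries all lay above the 4 Martinotti libraries, at means of 438 ± 69.5 and 103 ± 11.4 CPM (SD, n = 2). The difference did not pass in edgeR's quasi-likelihood test (log2 -1.99 ± 0.41, SE, adjusted p = 0.105), here and below as Martinotti minus interneuron-selective.

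Of 12097 genes tested on the 4 animal sums, 77 (0.637%) passed an adjusted p of 0.05, 33 higher in Martinotti cells (0.273%) and 44 higher in interneuron-selective cells (0.364%). In all 77 the 4 libraries of the higher type lay above the 4 of the lower type, which was the case for 8.91% of the genes tested (4.17% with Martinotti libraries above and 4.74% with interneuron-selective libraries above). The list counts below are to be read beside these shares. Of the 33, 5 had no count at all in interneuron-selective cells, and of the 44, 15 had none in Martinotti cells. With 2 animals a type, a coefficient of variation of 67.2% between animal sums, which includes the spread between libraries, limits the calls to large differences. The count depended on which animals and libraries entered. Without Martinotti animal 1 the count was 0 and without Martinotti animal 2 it was 3, whereas it was 147 without interneuron-selective animal 3 and 173 without animal 4, with the lone animal assumed to vary like the other type. Leaving out Martinotti libraries 2, 3 and 4 gave 19, 44 and 14, and leaving out interneuron-selective libraries 1 to 4 gave 29, 43, 45 and 34. The genes that passed whichever single library was left out were Crhbp, Sst, Tox, Nxph1, Pde1a and Reln on the Martinotti side (6 genes), and Cbln2, Vip, Adarb2, Sez6, Zfp804a and Sorcs3 on the other (6 genes). Taking the 8 libraries as separate samples gave 239 of 9508 genes (2.51%), 115 higher in Martinotti cells (1.21%) and 124 higher in interneuron-selective cells (1.3%). That fit ignores that libraries of the same animal are not independent.

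**Figure D1:**
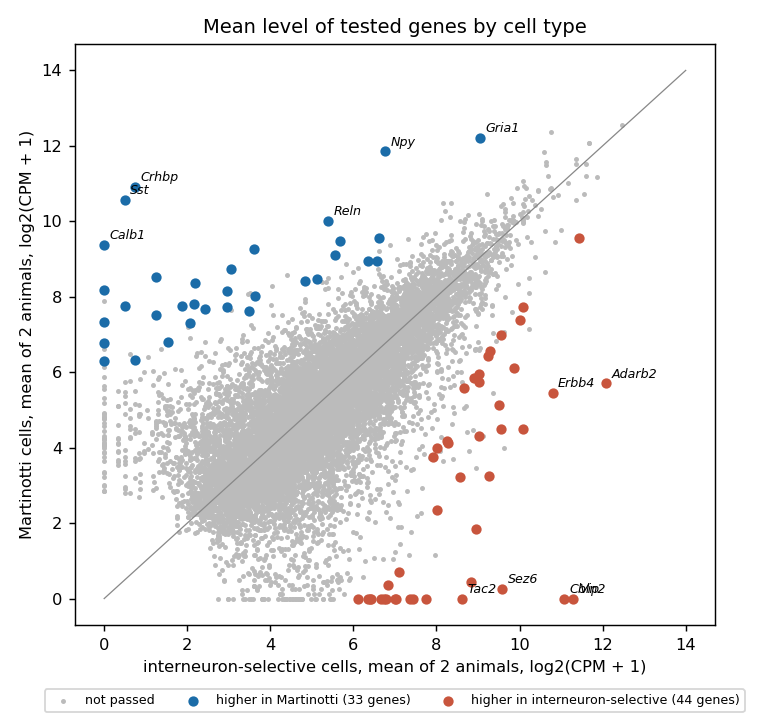
Mean level of the 12097 tested genes in interneuron-selective cells (x axis) and Martinotti cells (y axis), each the mean of 2 animals, as log2(CPM + 1). The 33 genes that passed and were higher in Martinotti cells are blue, the 44 higher in interneuron-selective cells are red and the others grey, and most grey points lie along the diagonal.

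Genes of the lineage lists that passed lay on the side of each type's embryonic origin. The lists hold markers as well as regulators. Of 7 tested genes of the medial eminence list, 4 passed, all higher in Martinotti cells, against 0.273% of all tested genes. Nxph1, a secreted protein and not a regulator, is among the 4. The median log2 difference of the list was 4.59, against -0.0064 for all tested genes. Lhx6, the homeobox gene that specifies medial eminence interneurons, was at 83.6, 89.2, 130.4 and 19.9 CPM in Martinotti libraries and had no count in any interneuron-selective library. That is at least 80.8-fold higher in Martinotti cells (adjusted p = 0.0495, edgeR). Satb1, a chromatin organizer needed for somatostatin neurons to mature, was at 217, 269.6, 125 and 394 CPM against 9.42, 10.4, 0 and 29.9 CPM. Its lowest Martinotti library stood well above the highest interneuron-selective one (log2 4.59 ± 0.58, adjusted p = 0.0216). Sox6 and Maf, which act downstream of Lhx6 or beside it, lay higher in all 4 Martinotti libraries without passing (209.7 to 401 against 48.5 to 98.3 CPM, adjusted p = 0.0828, and 253 to 398 against 75.8 to 139 CPM, adjusted p = 0.151).

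Of 9 tested genes of the caudal eminence list, 3 passed, all higher in interneuron-selective cells, against 0.364% of all tested genes. They were Adarb2, Prox1 and the receptor gene Htr3a, and of these only Prox1 is a transcription regulator. The median log2 difference was -6.32. In 7 of the 9 the interneuron-selective libraries all lay above, against 4.74% of all tested genes. Adarb2, an RNA-binding protein related to the RNA editing enzymes and a standard label of caudally derived interneurons, was at 32.9, 46.2, 62.5 and 61.8 CPM in Martinotti and 5133, 4903, 3643 and 3686 CPM in interneuron-selective libraries. The 84.8-fold ratio of means left a wide gap between the groups (log2 -6.32 ± 0.37, adjusted p = 0.000792). Prox1, a homeobox gene required for vasoactive intestinal peptide neurons to migrate and mature, was at 153, 90.7, 138 and 36.1 CPM in interneuron-selective libraries and had no Martinotti count. It was at least 294-fold higher (adjusted p = 0.0291). Sp8 and the nuclear receptor genes Nr2f2 and Nr2e1 missed the threshold although their libraries did not overlap. Sp8 had no count in Martinotti cells and 22.6 to 45.8 CPM in interneuron-selective libraries (adjusted p = 0.0898). Nr2f2 was at 0, 0, 0 and 4.42 against 49, 152, 46.7 and 443 CPM (adjusted p = 0.111), and Nr2e1 at 5.55, 8.03, 5.36 and 5.89 against 109, 113, 283 and 89.6 CPM (adjusted p = 0.0574). Npas1, a bHLH gene of the same list, overlapped between the types (54.4 to 244 and 88.5 to 315 CPM).

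Over the wider list of 72 tested transcription regulators, 7 passed with higher levels in Martinotti cells and 2 with higher levels in interneuron-selective cells, with a median log2 difference of -0.28. Besides Lhx6 and Satb1, the Martinotti genes included Tox, Klf5 and the paralogous zinc finger genes Bcl11a and Bcl11b. Tox, an HMG-box factor, was at 368, 416, 362 and 317 CPM in Martinotti libraries and 1.88, 1.49, 1.83 and 0 CPM in the others. Its Martinotti values were close together, with a ratio of means of 269 (log2 8.17 ± 0.66, adjusted p = 0.00504). Klf5, a Krüppel-like factor, was at 98.1, 268, 114 and 141 CPM with no interneuron-selective count, at least 164-fold higher (adjusted p = 0.0216). Bcl11a and Bcl11b were at 119.6 to 310.1 and 101 to 217 CPM in Martinotti libraries, against at most 6.94 and 6.22 CPM (adjusted p = 0.0269 and 0.0414). The interneuron-selective genes were Prox1 and Zbtb16, a zinc finger repressor, which was at 92.9, 25.7, 67.9 and 44.9 against 229.8, 659.9, 385 and 606 CPM (log2 -2.99 ± 0.42, adjusted p = 0.0336). Nfib and Nfix, of the nuclear factor I family, missed the threshold at 18.7 ± 20.9 against 556 ± 189 CPM and 3.57 ± 4.08 against 183 ± 25.4 CPM (adjusted p = 0.104 and 0.0929), although their libraries did not overlap.

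**Figure D2:**
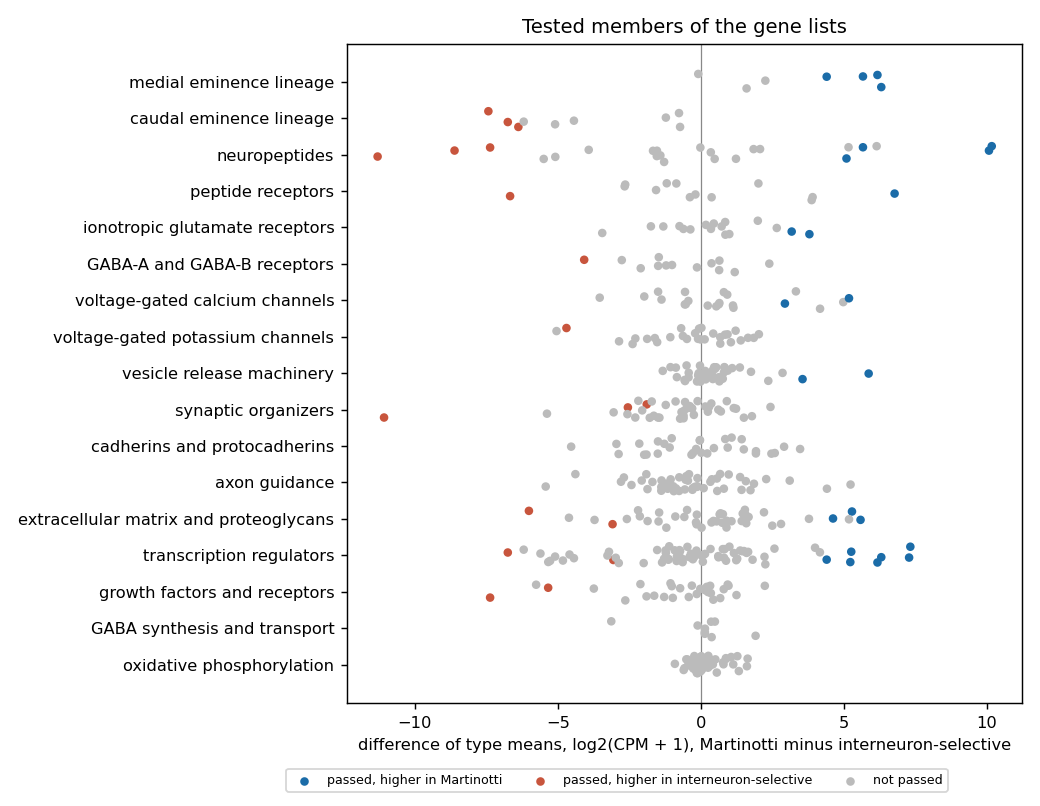
Difference of type means of every tested gene in 17 lists, on the log2(CPM + 1) scale, Martinotti minus interneuron-selective, with 1 point per gene and vertical scatter for legibility only. Genes that passed are blue (higher in Martinotti cells) or red (higher in interneuron-selective cells), and none passed among the 54 oxidative phosphorylation genes or the 9 of GABA synthesis and transport.

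Peptide genes divided the types in both directions. Of 23 tested genes of the neuropeptide list, 4 passed with higher levels in Martinotti cells (Sst, Npy, Crhbp and Nxph1) and 3 with higher levels in interneuron-selective cells (Vip, Tac2 and Pthlh), with a median log2 difference of 0.065. Sst and Vip are in these counts, but the Flp drivers fixed the side of both, so they are no finding. Npy, the precursor of neuropeptide Y, was at 3061, 4623, 3164 and 3782 CPM in Martinotti libraries and at 5.65, 279, 51.3 and 63.5 CPM in interneuron-selective libraries. The interneuron-selective libraries spread widely but all stayed below the lowest Martinotti library, and the ratio of means was 34.4 (log2 5.22 ± 0.52, adjusted p = 0.011). Crhbp, a secreted protein that binds corticotropin-releasing hormone, was at 1859, 1945, 2466 and 1542 CPM against 0, 1.49, 0.916 and 0 CPM. It had 2 counts over all interneuron-selective cells, a pooled ratio of 2978 (95% counting interval 824 to 24589) (adjusted p = 0.000254). Crh, which encodes the hormone that Crhbp binds, overlapped between the types, at 8.51, 459.7, 74.1 and 288 CPM and 345, 1625, 208 and 240.2 CPM. Its difference did not pass (log2 -1.42 ± 0.67, adjusted p = 0.514), and library 2 stood far above the other interneuron-selective libraries.

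Nxph1, a secreted neurexophilin that binds alpha-neurexins, was at 862, 379, 822 and 475 CPM in Martinotti libraries and 18.8, 11.9, 7.33 and 7.47 CPM in the others. The ratio of means was 55.3 (log2 5.91 ± 0.53, adjusted p = 0.00639). On the other side, Tac2, the neurokinin B precursor, was at 322, 705, 247 and 238 CPM in interneuron-selective libraries and had no Martinotti count, at least 1077-fold higher (adjusted p = 0.0102). Pthlh, the parathyroid hormone-related peptide, was at 190.2, 288, 112 and 43.6 CPM with no Martinotti count, at least 453-fold higher (adjusted p = 0.0336). The interneuron-selective libraries of Pthlh differed among themselves by several fold, and all lay above the zero values of the Martinotti libraries.

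Cck and Penk, the precursors of cholecystokinin and enkephalin, did not pass although every interneuron-selective library lay above every Martinotti library. Cck was at 12.6, 26, 0 and 0.736 CPM in Martinotti and 454, 1113, 192 and 148 CPM in interneuron-selective libraries (log2 -5.41 ± 1.40, adjusted p = 0.173). Penk was at 149, 30.5, 0 and 0 CPM and 785, 649.5, 589 and 641 CPM (log2 -3.80 ± 1.58, adjusted p = 0.433). The Martinotti counts of Penk all came from animal 1, in both of its libraries. Cort, the cortistatin gene related to Sst, had 27.4, 189, 15.2 and 33.9 CPM in Martinotti libraries and no interneuron-selective count, at least 72.1-fold higher without passing (adjusted p = 0.105). Nppc, the C-type natriuretic peptide gene, was at 24.3 to 104 CPM against at most 1.83 CPM (adjusted p = 0.11). Of the granin genes, whose products are stored in dense-core vesicles, Vgf, Scg2 and Chga also had all Martinotti libraries above without passing. Their means were 1244 ± 646 against 295 ± 126 CPM for Vgf (adjusted p = 0.121), 608 ± 184 against 259 ± 61 CPM for Scg2 (adjusted p = 0.243) and 198 ± 3.34 against 54.5 ± 10.2 CPM for Chga (adjusted p = 0.184). None of 12 tested peptide processing genes passed (median log2 difference -0.22).

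**Figure D3:**
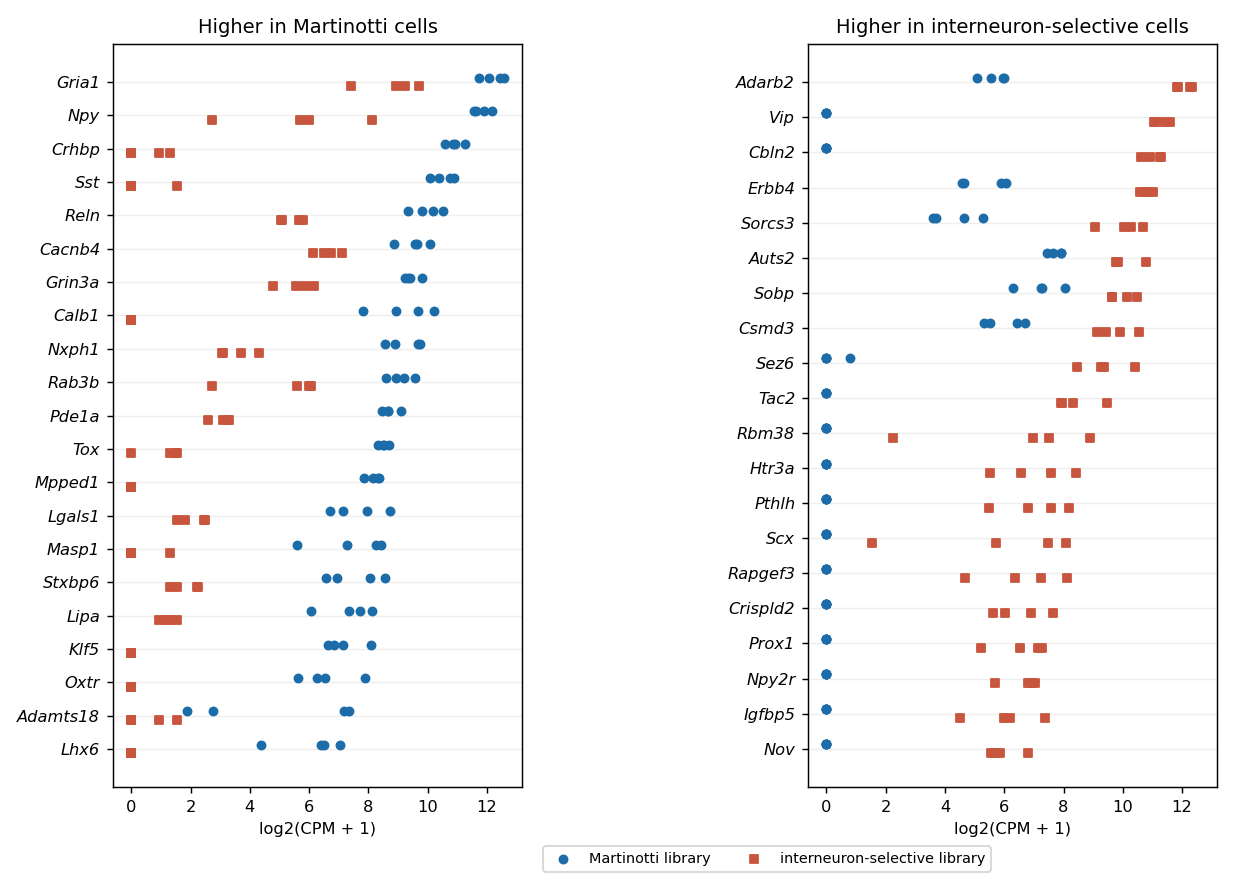
Level in each of the 8 libraries, as log2(CPM + 1), of 21 genes higher in Martinotti cells (left) and 20 higher in interneuron-selective cells (right) with the largest folds or highest levels among those reported, with Martinotti libraries as blue circles and interneuron-selective libraries as red squares. In every gene shown the 4 libraries of the higher type lie to the right of the 4 of the lower type, and 13 of the 20 genes on the right have no count in any Martinotti library.

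Receptors for peptides and transmitters separated the types in single members. Among 13 tested peptide receptor genes, 1 passed in each direction, with a median log2 difference of -0.39. Oxtr, the oxytocin receptor, was at 233, 48.5, 92 and 75.1 CPM in Martinotti libraries and had no interneuron-selective count. The bound on the ratio was at least 112-fold (adjusted p = 0.0398), and library 1 was the highest. Npy2r, a receptor for neuropeptide Y, was at 111, 131, 50.4 and 118 CPM in interneuron-selective libraries and had no Martinotti count, at least 278-fold higher (adjusted p = 0.0336). Npy and Npy2r thus lay on opposite sides of the comparison, each with all 4 libraries apart. Htr3a, the ionotropic serotonin receptor that marks caudally derived interneurons, was alone among 10 tested monoamine and adenosine receptors to pass, at 190.2, 345, 44.9 and 93.3 CPM in interneuron-selective libraries with no Martinotti count (at least 473-fold, adjusted p = 0.0425). Adra1b, an alpha-1 adrenergic receptor, was at 1.11, 0, 63.4 and 0.736 against 578, 757, 827 and 973 CPM. It missed the threshold (adjusted p = 0.146), and Martinotti library 3 held nearly all of its Martinotti counts. Of 7 tested acetylcholine receptor genes, Chrna4, a nicotinic alpha subunit, passed at 2.59, 18.9, 0.893 and 24.3 against 275, 83.2, 292 and 346 CPM (log2 -4.19 ± 0.64, adjusted p = 0.0448). Chrm3, a muscarinic receptor, lay the other way without passing, at 499 to 649 against 232 to 398 CPM (adjusted p = 0.457).

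Among 17 tested ionotropic glutamate receptor genes, 2 passed, both higher in Martinotti cells, with a median log2 difference of 0.55. Gria1, an AMPA receptor subunit, was at 5561, 3416, 6064 and 4293 CPM in Martinotti libraries and 486, 171, 841 and 604 CPM in the others. The groups were well apart, at a ratio of means of 9.05 (log2 3.25 ± 0.44, adjusted p = 0.0336). Grin3a, an NMDA receptor subunit that lowers calcium permeability, was at 651, 889.5, 600.03 and 679 CPM against 56.5, 26.8, 71.4 and 46 CPM (log2 3.91 ± 0.44, adjusted p = 0.0151). Other subunits leaned in either direction without passing. Gria3 and the kainate receptor gene Grik3 were at 400.5 ± 28.1 and 389 ± 45.9 CPM in Martinotti cells against 62.8 ± 44 and 97.1 ± 36.6 CPM (adjusted p = 0.113 and 0.114). Grik2 and Grin2b were at 359 ± 73.9 and 533 ± 226 CPM against 1207 ± 57.1 and 1325 ± 368 CPM in interneuron-selective cells (adjusted p = 0.0994 and 0.291). Gria2, the subunit that makes AMPA receptors impermeable to calcium, was at 210.5 to 291 CPM against 292 to 497 CPM, with the interneuron-selective libraries just above (log2 -0.52 ± 0.38, adjusted p = 0.758). Gria1 and Gria2 were therefore not higher in the same type, though the Gria2 difference did not pass. The metabotropic receptor gene Grm8 was at 18 to 67 against 203 to 375 CPM (adjusted p = 0.0898), and none of 6 tested metabotropic receptor genes passed.

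The median log2 difference of 13 tested GABA receptor genes was -0.93. Gabrb2 and Gabrg3, subunits of GABA-A receptors, had all 4 interneuron-selective libraries above and did not pass (log2 -2.74 ± 0.68 and -1.41 ± 0.41, adjusted p = 0.147 and 0.205). For GABA release itself, none of 9 tested synthesis and transport genes passed. Gad1, a GABA-synthesizing enzyme, was at 579 ± 22.9 and 526 ± 153 CPM (log2 0.24 ± 0.35), and the vesicular transporter Slc32a1 at 1799 ± 217 and 1402 ± 397 CPM (log2 0.46 ± 0.30), with libraries of the types overlapping in both. Gad2, the other synthesizing enzyme, was at 845, 1189.6, 1171 and 975 CPM in Martinotti and 273, 418, 212 and 184 CPM in interneuron-selective libraries. It did not overlap and missed the threshold (log2 2.02 ± 0.37, adjusted p = 0.0782).

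Single transcripts of calcium-binding and calcium channel genes separated the types. Of 16 tested genes of the calcium-binding list, 1 passed in each direction, with a median log2 difference of -0.17. Calb1, the buffer calbindin, was at 1191, 819, 487 and 222 CPM in Martinotti libraries and had no count in any interneuron-selective library. It was at least 689-fold higher (adjusted p = 0.0134), and was lower in both libraries of Martinotti animal 2 than in those of animal 1. Calbindin and calretinin therefore stood in opposite directions, the Calb2 difference being the 1 that did not pass. Caln1, the EF-hand protein calneuron, was at 15.2, 21.3, 25.9 and 23.9 CPM against 691, 404, 913 and 1021 CPM, with interneuron-selective libraries far above (log2 -5.02 ± 0.51, adjusted p = 0.0105). Of 21 tested genes of the calcium channel list, which also holds the gamma subunit family, 2 passed, both higher in Martinotti cells. The median log2 difference of the list was 0.68. Cacnb4, a beta subunit of voltage-gated channels, was at 792, 761, 1069 and 467 CPM against 106, 68.4, 90.2 and 138 CPM (log2 3.04 ± 0.39, adjusted p = 0.0216). Cacng3, an AMPA receptor auxiliary protein of the gamma subunit family, was at 325, 339.6, 105 and 333 CPM against 9.42, 7.43, 8.24 and 1.24 CPM (log2 5.49 ± 0.64, adjusted p = 0.0171). Martinotti library 3 was the low one for Cacng3 and still above all interneuron-selective libraries. Cacna2d2, an alpha2delta subunit, was at 25.9 to 58.9 CPM against at most 1.49 CPM and did not pass (adjusted p = 0.114).

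Among 29 tested voltage-gated potassium channel genes and partners, Kcnip4, a calcium sensor that binds Kv4 channels, alone passed. It was at 18.7, 19.1, 14.8 and 22.4 CPM in Martinotti and 839, 249, 568 and 461 CPM in interneuron-selective libraries (log2 -4.67 ± 0.45, adjusted p = 0.00862). The Martinotti values were tightly grouped, and interneuron-selective library 1 was the highest. Its relative Kcnip3 had 1 count over all Martinotti cells and 19.9 to 42.1 CPM in interneuron-selective libraries (adjusted p = 0.0878). Kcnq5, an M-current channel, was at 55.4 to 173 against 397 to 617 CPM (adjusted p = 0.0898). Kcnc1, the fast delayed rectifier Kv3 subunit, was at 55.8 to 202 against 312 to 409 CPM (adjusted p = 0.193). None of 19 other tested potassium channel genes passed. Of these Kcnk13, a two-pore-domain leak channel, lay higher in all Martinotti libraries at 22.9, 184, 59.8 and 73.6 CPM against 0, 0, 0.916 and 1.24 CPM (adjusted p = 0.0622). Accn4, of the acid-sensing channel family, had 0, 0, 5.36 and 0 CPM in Martinotti libraries and 160.1, 412, 179 and 212 CPM in the others (adjusted p = 0.0677), and none of 20 tested sodium and HCN channel genes passed.

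Release machinery gave 2 genes that passed of 41 tested, both higher in Martinotti cells, against 0.273% of all tested genes. In 7 of the 41 the Martinotti libraries all lay above and in 1 the reverse, against 4.17% and 4.74% of all tested genes. The median log2 difference was 0.52. Rab3b, a synaptic vesicle GTPase, was at 383, 486, 764 and 590.2 CPM against 5.65, 65.4, 46.7 and 62.2 CPM (log2 3.66 ± 0.46, adjusted p = 0.0216). Stxbp6, the SNARE-binding protein amisyn, was at 379, 121, 93.8 and 263 CPM against 1.88, 1.49, 3.66 and 3.73 CPM (log2 6.33 ± 0.76, adjusted p = 0.0199). Both genes kept all Martinotti libraries above all others, and the Stxbp6 libraries of each animal differed by more than the animal means. Syt1, the calcium sensor of fast release, was at 2398 to 3745 against 1219 to 1893 CPM without passing (log2 1.04 ± 0.29, adjusted p = 0.193). The vesicle priming gene Unc13c was at 139.96 to 598 against 9.96 to 62.4 CPM (adjusted p = 0.121). Slc30a3, the vesicular zinc transporter, was at 251, 667, 474 and 442 CPM in Martinotti and 18.8, 14.9, 55.9 and 147 CPM in the other libraries, apart but not past the threshold (adjusted p = 0.153).

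Synaptic organizers passed on the interneuron-selective side. Of 40 tested genes, 3 passed, all higher in interneuron-selective cells, with a median log2 difference of -0.51. In 11 of the 40 the interneuron-selective libraries all lay above the Martinotti libraries, and in 0 the reverse. The shares over all tested genes were 0.364% for passing on this side, 4.74% for interneuron-selective libraries above and 4.17% for the reverse. Cbln2, a secreted cerebellin that links neurexins to delta glutamate receptors, was at 1556, 2461, 2478 and 1932 CPM in interneuron-selective libraries and had no count in any Martinotti library. It was at least 5957-fold higher (adjusted p = 0.000356). Cbln4, the paralog usually listed for somatostatin neurons, was at 159.5, 65.8, 76.8 and 4.42 CPM in Martinotti and 3.77, 41.6, 0 and 1.24 CPM in interneuron-selective libraries. The libraries overlapped and the difference did not pass (log2 2.70 ± 1.43, adjusted p = 0.579). Il1rapl1, a trans-synaptic adhesion protein, was at 60.3, 203, 113 and 119 CPM against 887, 473, 716 and 999 CPM (log2 -2.47 ± 0.38, adjusted p = 0.0448). Elfn1, a postsynaptic adhesion protein known from somatostatin neurons, overlapped between the types (598 to 879 and 300.2 to 614 CPM, adjusted p = 0.522).

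The extracellular matrix list, with 42 tested genes and a median log2 difference of 0.69, had 3 members that passed higher in Martinotti cells and 2 in interneuron-selective cells. Reln, the secreted glycoprotein reelin, was at 648, 888, 1455 and 1147 CPM in Martinotti libraries and 54.6, 32.7, 32 and 49.8 CPM in the others. The ratio of means was 25.2 (log2 4.74 ± 0.42, adjusted p = 0.00639). Dab1, the adaptor that carries the reelin signal inside the receiving cell, was at 6.66, 1.93, 17 and 9.57 CPM in Martinotti libraries and 1091, 647, 157 and 686 CPM in interneuron-selective libraries. It lay on the opposite side with a ratio of means of 71.9 (log2 -6.12 ± 0.75, adjusted p = 0.0216), and interneuron-selective library 3 was the low one. Hpse, the heparan sulfate-cleaving enzyme heparanase, was at 40.3, 162, 22.3 and 196 CPM in Martinotti and 1.88, 1.49, 2.75 and 1.24 CPM in the other libraries (log2 5.92 ± 0.87, adjusted p = 0.0406). Hs6st3, which adds sulfate to heparan chains, was at 22.6, 68.4, 10.7 and 75.1 CPM against 426, 288, 516 and 376 CPM (log2 -3.02 ± 0.46, adjusted p = 0.0434). Heparanase and the sulfotransferase thus stood on opposite sides. Adamts18, a secreted metalloprotease, was at 144, 5.78, 2.68 and 160.4 CPM against 1.88, 0, 0.916 and 0 CPM. Its 2 lowest Martinotti libraries, 1 of each animal, were close to the interneuron-selective values, with 2 counts over all interneuron-selective cells (adjusted p = 0.0448). Chst15, a chondroitin sulfotransferase, overlapped at 353, 69.3, 519.7 and 8.09 CPM and 56.5, 0, 7.33 and 2.49 CPM (adjusted p = 0.11), and Thsd7a did not pass at 738 ± 229 against 159 ± 109.97 CPM (adjusted p = 0.141).

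Signalling genes gave single members on each side. Of 29 tested growth factor genes and receptors, Erbb4 and Pthlh passed, both higher in interneuron-selective cells (median log2 difference -0.23). Erbb4, the neuregulin receptor of cortical interneurons, was at 22.9, 23.8, 58.9 and 65.5 CPM in Martinotti and 1846, 1541, 1713 and 2092 CPM in interneuron-selective libraries. The ratio of means was 41.3 with little spread among the interneuron-selective libraries (log2 -5.30 ± 0.54, adjusted p = 0.0111). The receptor genes Egfr and Kit lay the same way without passing, at 1.35 ± 0.94 against 126 ± 94.5 CPM and 23.9 ± 13.6 against 331 ± 219 CPM (adjusted p = 0.0597 and 0.0936). Of 41 tested RGS and cyclic nucleotide genes, 1 passed in each direction. Pde1a, a calmodulin-dependent phosphodiesterase, was at 543, 409, 403 and 354 CPM in Martinotti libraries and 8.79, 4.95, 8.55 and 7.47 CPM in the others (log2 5.94 ± 0.54, adjusted p = 0.00639). Pde4b, a cyclic AMP-specific phosphodiesterase, was at 21.5, 5.39, 6.43 and 25.3 CPM against 219, 245, 325 and 219 CPM (log2 -4.02 ± 0.57, adjusted p = 0.0348). The phosphodiesterase genes that passed therefore lay on opposite sides. Pde4d was at 322 ± 34.7 against 991 ± 251 CPM (adjusted p = 0.123), Rgs17 at 428 ± 25 against 96 ± 7.51 CPM (adjusted p = 0.0712) and Rgs8 at 94.8 ± 33.7 against 488 ± 246 CPM (adjusted p = 0.132). Rapgef3, a cyclic AMP-activated exchange factor outside the list, passed at 277, 150.1, 24.7 and 82.1 CPM in interneuron-selective libraries with no Martinotti count (at least 353-fold, adjusted p = 0.0498).

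Outside the lists, the genes with the largest folds or highest levels on the Martinotti side included Mpped1, Masp1, Lipa and Lgals1. Mpped1, a metallophosphoesterase domain gene, was at 284, 326, 229 and 316 CPM with no interneuron-selective count. It was at least 301-fold higher (adjusted p = 0.00862). Masp1, a serine protease of the complement lectin pathway, was at 343, 308, 47.3 and 154 CPM against 1 count over all interneuron-selective cells, a pooled ratio of 802 (95% counting interval 144 to 31711) (adjusted p = 0.0336). Lipa, the lysosomal acid lipase, was at 65.9, 278, 162 and 209 CPM against 1.88, 1.49, 0.916 and 1.24 CPM (log2 7.17 ± 0.80, adjusted p = 0.0141). Lgals1, a galectin, was at 141, 103, 426 and 248 CPM against 1.88, 4.46, 4.58 and 2.49 CPM (log2 6.05 ± 0.81, adjusted p = 0.0287). In these 4 genes no interneuron-selective library exceeded 4.58 CPM. Other genes that passed on this side were Akap5, Ptprm, Fam5b, Wdr48, Man1a and Olfm3, with ratios of means from 5.28 (Olfm3) to 31 (Akap5).

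On the interneuron-selective side, Sez6, a complement-domain membrane protein of dendrites, was at 614, 351, 1356 and 656 CPM with 1 count over all Martinotti cells. The pooled ratio was 6879 (95% counting interval 1234 to 271816) (adjusted p = 0.00639). Zfp804a, a zinc finger gene, was at 1.11, 1.93, 0.893 and 5.89 CPM in Martinotti and 917, 340.4, 513 and 235 CPM in interneuron-selective libraries (log2 -7.55 ± 0.66, adjusted p = 0.00639). Sorcs3, a sorting receptor of the Vps10p family, was at 11.1, 11.9, 24.1 and 37.5 CPM against 1635, 537, 1249.9 and 1045 CPM (log2 -5.61 ± 0.58, adjusted p = 0.0119). Its relative Sorcs1 passed in the same direction, at 104, 50.6, 50.9 and 41.2 CPM against 469, 605, 495 and 485 CPM (log2 -2.99 ± 0.46, adjusted p = 0.0448). Cxcl14, a chemokine, was at 0, 1.28, 0 and 0 CPM against 350.3, 1000.3, 176 and 233 CPM, with its 4 Martinotti counts all in library 2 (adjusted p = 0.018). Cpne7, a calcium-dependent phospholipid-binding protein, was at 69.2, 7.38, 71.4 and 0 CPM against 633, 813, 729.8 and 689 CPM, so each Martinotti animal had 1 high and 1 low library while the interneuron-selective libraries were even (log2 -4.30 ± 0.41, adjusted p = 0.00794). With the 8 libraries as separate samples Cpne7 did not pass (adjusted p = 0.0594), nor did Wdr48 (adjusted p = 0.0719).

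Further genes without a Martinotti count included secreted proteins. Rbm38, an RNA-binding protein, and Scx, a bHLH factor known from tendon, were at 3.77, 476, 183 and 126 CPM and 1.88, 269, 52.2 and 178 CPM, with library 1 close to 0 in both. The bounds on their ratios were at least 589-fold and at least 355-fold (adjusted p = 0.0132 and 0.0216). Crispld2, Igfbp5 and Nov, which encode secreted proteins, were at 109 ± 76, 81 ± 53.4 and 68.1 ± 24.6 CPM (SD, n = 2). They were at least 302, 224 and 188-fold higher (adjusted p = 0.0444, 0.0499 and 0.0498). Auts2, Sobp and Csmd3, among the higher levels on this side, were present in both types, at ratios of means of 5.07, 6.2 and 13.8 (adjusted p = 0.0498, 0.0472 and 0.0495). Other genes that passed on this side were A730017C20Rik, AI848285, Cit, Edil3, Fam19a2, Fxyd6, Gpd1, Htra1 and Ptpre, with the smallest ratio of means in Fxyd6 (6.76).

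Several lists held no gene that passed, where 0.637% of all tested genes did. None of 30 tested cadherin and protocadherin genes passed, with Cdh13 nearest at 581 to 958 CPM in Martinotti against 122 to 322 CPM in interneuron-selective libraries (adjusted p = 0.0597). In 7 of the 30 the Martinotti libraries all lay above and in 5 the reverse, against 4.17% and 4.74% of all tested genes. With the 8 libraries as separate samples, 4 of 28 passed, all higher in Martinotti cells, against 1.21% of all genes in that fit. That fit takes libraries of the same animal as independent, which they are not. Among 50 tested axon guidance genes none passed, and Sema3a, a secreted semaphorin, was at 67 to 229 against 5.95 to 21.1 CPM (adjusted p = 0.127). The 54 oxidative phosphorylation genes gave no call, at a median log2 difference of 0.17, and summed to 17760 to 19779 CPM in Martinotti and 15456 to 17298 CPM in interneuron-selective libraries. The 14 tested immediate early genes gave none either. With the 8 libraries as separate samples, 2 of 39 axon guidance genes passed, both higher in Martinotti cells. No oxidative phosphorylation or immediate early gene passed in that fit. At the spread between these animals a missed threshold does not show that the types were alike in these genes.

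The genes that passed were then read in the other Sst and Vip lines of the series, whose cells came from other animals on other flow cells. These were long-projecting cells (Sst-Flp; Nos1-Cre; Ai65, male, 28 to 29 days, 4 animals) and CCK basket cells (Vip-Flp; CCK-Cre; Ai65, male, 39 to 40 days, 2 animals). They are different cell types, and flow cell and age differ between them. Of the 33 genes higher in Martinotti cells, 29 had a higher mean in long-projecting than in CCK basket cells, against 49.0% of all tested genes. Of the 44 genes higher in interneuron-selective cells, 41 had a higher mean in CCK basket cells, against 50.9% of all tested genes. Sst is counted in the 29 and Vip in the 41, and the Flp drivers of these lines fixed the side of both. Lhx6 was at 115 ± 25.1 CPM in long-projecting cells with no count in CCK basket cells, and Adarb2 at 42.9 ± 6.48 against 6462 ± 1073 CPM. Reln was among the exceptions, at 25.1 ± 11.5 CPM in long-projecting and 40.3 ± 9.05 CPM in CCK basket cells, both far below the Martinotti mean of 1032 ± 360.5 CPM. Hpse was at 0.984 ± 0.274 and 12.6 ± 17.4 CPM, Lipa at 14.5 ± 5.68 and 36.9 ± 28.6 CPM, and Wdr48 at 56.1 ± 23.6 and 84.7 ± 86.9 CPM. The exceptions on the other side were A730017C20Rik, Fxyd6 and Il1rapl1, with Fxyd6 at 1207 ± 205 CPM in long-projecting cells against 684 ± 252 CPM. Cbln2 was at 55.3 ± 5.34 and 1271 ± 286 CPM, so the other Sst line did hold counts of it.

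**Figure D4:**
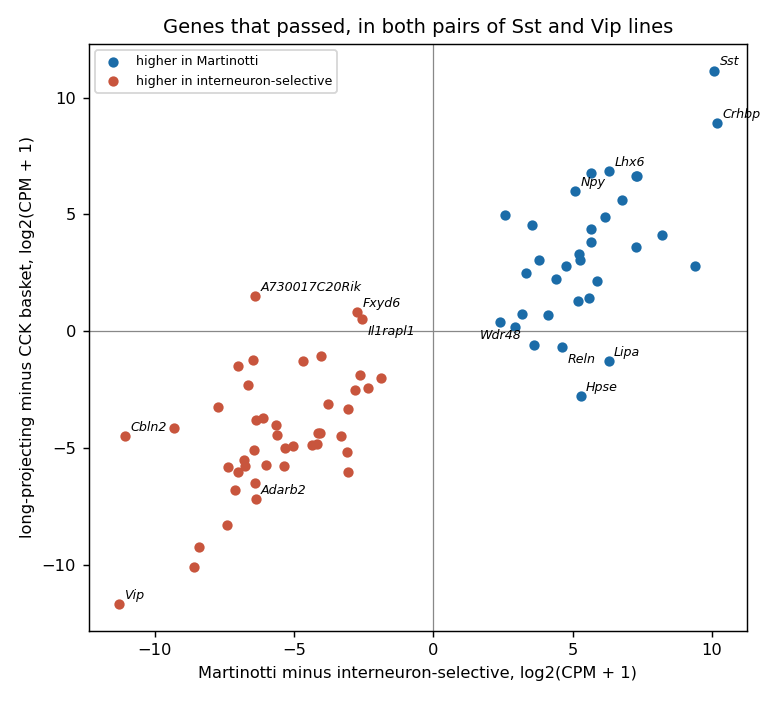
Difference of means of the 77 genes that passed, on the log2(CPM + 1) scale, for Martinotti minus interneuron-selective cells (x axis) and for long-projecting minus CCK basket cells (y axis). Of the 33 blue genes 29 lie above 0 on the y axis and of the 44 red genes 41 lie below it, and the 4 and 3 exceptions are labelled.

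Markers of other cells were summed by library to set beside these results. Oligodendrocyte markers (11 genes) summed to 42.0 to 278.5 CPM in Martinotti libraries and 67.6 to 166 CPM in 3 interneuron-selective libraries, but to 4031 CPM in interneuron-selective library 3. The myelin gene Mal had 871 counts in that library and none in library 1. No oligodendrocyte marker passed, and without that library 45 genes passed, 44 of them among the 77. Astrocyte markers (10 genes, Gfap without a count in either type) summed to 54.2 to 113.5 CPM in Martinotti and 310.1 to 498 CPM in interneuron-selective libraries, without overlap, and none passed. Endothelial and mural markers (10 genes, Cldn5 at 0) reached 238 CPM in Martinotti library 4 and stayed between 19.3 and 65.9 CPM elsewhere, and without that library 14 genes passed. Microglia markers summed to 15.2 to 173 and 13.2 to 288 CPM. Of the pyramidal neuron markers, Neurod6, Neurod2, Tbr1 and Emx1 were at 0 in both types, and the list summed to 153.8 to 293 and 211.8 to 326 CPM. CCK basket markers, a list that holds Cxcl14 and Htr3a, summed to 122 to 516 CPM in Martinotti and 869 to 4715 CPM in interneuron-selective libraries, and Cnr1, its cannabinoid receptor, was at 27.3 to 96.2 against 193 to 623 CPM (adjusted p = 0.11). Long-projecting Sst markers (7 genes, Npy and Oxtr among them) summed to 3258 to 5085 CPM in Martinotti and 13.2 to 281 CPM in interneuron-selective libraries, mostly Npy. The 2 of them that were tested, Npy and Oxtr, both passed. Neurogliaform markers summed to 9.95 to 53.7 and 155 to 728 CPM, mostly Kit. Markers of parvalbumin cells summed to 171 to 351 and 457 to 652 CPM, with Kcnc1 and Pthlh among them, and Pvalb at 2.18 ± 2.51 and 13.9 ± 16.1 CPM (SD, n = 2). The part of other cells' RNA in the differences between the types was not tested.

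**Figure D5:**
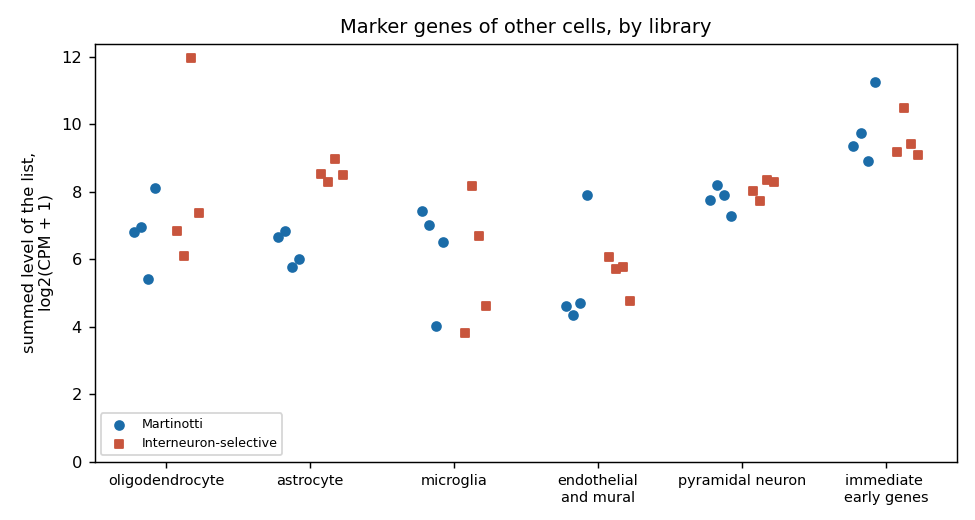
Summed level of 6 marker lists in each library, as log2(CPM + 1), with Martinotti libraries as blue circles and interneuron-selective libraries as red squares, from library 1 on the left to library 4 on the right. Interneuron-selective library 3 stands alone in oligodendrocyte markers at 4031 CPM, and the types separate in astrocyte markers.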

How the data were processed

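RNA of single fluorescent neurons was amplified linearly in 2 rounds and sequenced from pooled barcoded libraries with a random tag on each amplified RNA, per the labels' protocols. The submitters' processing notes name Bowtie 0.12.7 and the genome build mm9. The authors deposited a table of expected counts for 23335 genes in 584 cells, in which 4.07% of values above 0 were not whole (tolerance 1e-06). The counting tool, and whether the values are reads or tags, are not given in the sources used here. Intervals and floors therefore reflect counting error alone. Genes are named as in the table.

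Cells were assigned to types by their names, to libraries through the sample guide of the series, and to animals by the labels of the libraries. Sums per animal were rounded to whole counts, and edgeR 4.0.16 under R 4.3.3 was used for the test (TMM scaling, filterByExpr, robust quasi-likelihood test, Benjamini-Hochberg adjustment over 12097 genes, threshold 0.05), with 2 residual degrees of freedom. Alternatives used limma 3.58.1 and DESeq2 1.42.0, other scalings and filters, other units of the test, and each animal or library left out. An exact permutation over 2 and 2 animals cannot pass the threshold and was not used. The test code was run on simulated counts. Nothing in the labels says how the animals were related. The p-values measure the spread between the sums of these animals, which includes the spread between libraries. As median absolute log2 difference, libraries of 1 animal differed by 0.671 to 0.911, and the 2 animals of a type by 0.602 and 0.658. The type means differed by 0.651 (5764 genes with at least 50 CPM in the higher type, pseudocount of 1). Each type mean averages 2 animals and so carries less spread than a single animal. The value between types is therefore not directly comparable with those between single animals or libraries.

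Genes were named by rule: Sst, Vip and Calb2, per direction the 15 largest fitted folds among genes past the threshold with at least 50 CPM and no overlap of libraries, and the 10 highest levels, plus members of the gene lists. Other genes that passed were added for completeness. A few genes are not reported here. Folds are ratios of mean CPM, bounds against the floor of 3 counts, or, with 1 to 3 counts, pooled ratios. Figures use a pseudocount of 1. The members and lists were chosen with earlier results of these data known. Library numbers did not pair samples: deviations of same-numbered libraries of the types correlated at -0.0018 to -0.0150.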

Additional observations from a re-analysis of the deposited data

Results flagged for a closer look

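Of 241 groups of 4 libraries examined (named genes and marker sums), 23 held 1 library set apart from the other 3 by more than Dixon's 95% critical value. That value is exceeded by about 1 in 20 groups of independent normal values. CPM values of libraries that share animals need not be of that kind, and the ratio is always 1 where the other 3 libraries are at 0. The number of flagged groups was therefore not set against chance. The oligodendrocyte marker sum was set apart at 4031 CPM in interneuron-selective library 3. The endothelial and mural marker sum of 238 CPM in Martinotti library 4 and the immediate early gene sum of 1440.2 CPM in interneuron-selective library 2 were also set apart.

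Among Martinotti libraries, Cort (189 CPM) and Cxcl14 (1.28 CPM) were high in library 2, and Sox6 (209.7 CPM) was low there. Library 3 was high for Npas1 (244 CPM), Adra1b (63.4 CPM), Htra1 (9.82 CPM) and Accn4 (5.36 CPM) and low for Cacng3 (105 CPM). Library 1 was high for Sorcs1 (104 CPM) and Fam19a2 (43.7 CPM), and library 4 for Nfix (10.3 CPM) and Nr2f2 (4.42 CPM).

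Among interneuron-selective libraries, library 2 was high for Crh (1625 CPM, the other 3 at 208 to 345 CPM), Gria3 (161 CPM) and Cbln4 (41.6 CPM). Library 1 was high for Chst15 (56.5 CPM). Library 3 was high for Nr2e1 (283 CPM) and Nov (111 CPM), and library 4 for Auts2 (1772 CPM) and Cit (994 CPM). Of the genes named here that had passed, each kept its libraries apart from those of the other type.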

How the results depend on the processing

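The count of genes that passed depended on the processing more than their direction did. Against 77 genes (33 higher in Martinotti cells, 44 higher in interneuron-selective cells), the DESeq2 Wald test gave 722 (330 and 392), no filter on low counts 160 (68 and 92), and a filter at a mean of 50 CPM 135 (51 and 84). The fit over all 7 types of the series gave 480 (261 and 219). The 8 library sums as separate samples gave 239 (115 and 124), the same with library number as a replicate block 149 (66 and 83), and limma-voom with animal as a random effect 243 (89 and 154). The limma fit estimated a correlation of -0.0256 within animals, so it treated the 8 libraries almost as independent samples. The library numbers do not pair samples, so the block has no basis in the design. DESeq2's size factors in edgeR gave 77 genes (32 and 45).

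Leaving out each animal gave 0 to 173 genes (0 to 79 and 0 to 94), each library 14 to 66 (7 to 26 and 7 to 40), and each library of the 8 separate sums, an alternative chosen after seeing the data, 129 to 184 (57 to 86 and 72 to 108). None of the 77 genes changed sign under any alternative run. Of these genes 71 passed over all 7 types, and 71 of the 73 tested passed with 8 library sums. Those that did not pass over all 7 types were Satb1, Calb1, Npy2r, Chrna4, Cpne7 and Fxyd6. Their adjusted p in that edgeR fit was 0.142, 0.0746, 0.0669, 0.157, 0.0759 and 0.323. Lhx6, Oxtr, Bcl11b, Pde4b, Hs6st3 and Olfm3 were among the genes that passed in none of the animal-sum fits with a library left out. Crh, which did not pass, ran from -2.60 to 0.064 on the log2 scale over the leave-one-out fits and changed sign without interneuron-selective animal 3. It passed without animal 4 (log2 -2.12, adjusted p = 0.0381). The cause of these shifts was not tested. Depth limits genes without a count to bounds, more loosely in interneuron-selective cells.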

Other observations

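The Martinotti animals differed from each other in a few genes listed for other types, singled out after their values were seen. Chodl and Tacr1, markers of long-projecting Sst cells, were at 139.9, 128, 0 and 0 CPM and 219.8, 259, 0 and 3.68 CPM in Martinotti libraries 1 to 4, so their counts came nearly all from animal 1. Neither was tested, and interneuron-selective libraries held 0, 0, 0 and 0 CPM and 3.77, 1.49, 0 and 2.49 CPM. Nos1, which defines that type's driver, was at 6.29, 24.1, 1.79 and 2.21 CPM in the same Martinotti libraries. Chat, the acetylcholine-synthesizing enzyme, was at 3.77, 0, 23.8 and 106 CPM in interneuron-selective libraries, mostly in animal 4, and had 3 counts over all Martinotti cells.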
